A study of Mus musculus with 5 samples.

Results

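The 8 genes described here are linked to the regulation of osteoclasts, the bone-resorbing cells, by the stromal cells of marrow. They encode secreted or surface factors (Tnfsf11, Tnfrsf11b, Csf1, Il34 and Kitl), receptors (Vdr and Tnfrsf1a) and a signalling adaptor (Traf6). They were chosen by name from known biology, as the rows of the deposited gene table with those symbols, and make up 8 of 55401 genes. The study profiled by RNA-seq wild-type mouse mesenchymal stem cells from bone marrow (BMSCs), a plastic-adherent stromal population, after continuous negative pressure (NP). Cells were cultured for 72 h, and NP was held for 48 h at -80, -120, -160 or -200 mmHg, as used over wounds to draw fluid from tissue. A culture labelled 0 mmHg was the control. The genotype was labelled WT in every group, and the age and sex of the donor mice and the number of animals pooled are not given in the sources used here. The pressures are compared here with the control and with one another.

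Osteoclasts form from myeloid precursors that must receive 2 signals from neighbouring stromal cells and osteoblasts. One is macrophage colony-stimulating factor (M-CSF, from Csf1), which keeps precursors alive through the receptor CSF1R and shares that receptor with IL-34 (from Il34). The other is RANKL (from Tnfsf11), which binds RANK on the precursor and signals through the adaptor TRAF6, and which the secreted decoy osteoprotegerin (from Tnfrsf11b) keeps from its receptor. Active vitamin D, acting on its receptor in stromal cells, raises RANKL, and tumour necrosis factor (TNF) acts on both cell types.

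Each of the 5 conditions had 1 library. No difference between conditions therefore has a replicate check, and no test was run. The 95% intervals below are exact intervals that cover the counting of reads only, not the spread between cultures. Libraries with no molecular identifiers can count a molecule more than 1 time, so the intervals may be too narrow even for counting. Values are FPKM, the reads of a gene scaled to its exon length and to the total of the library. The totals recovered from them lay between 16600622 and 18398911 reads. The control library stood apart from the others: 4 Y-linked genes had 0 reads in every pressure library and 2493 reads in the control. In comparisons with that library, donor animals that differ and pressure cannot be told apart, whereas comparisons among the 4 pressures do not use it. Of 10 stromal markers 8 had a mean of at least 1 FPKM, and the list summed to between 1838 and 2107 FPKM under pressure and 3256 FPKM in the control. Col1a2 stood at 462.6 to 573.6 FPKM under pressure and 453.8 FPKM in the control, and Pdgfra at 63.69 to 71.49 and 44.27 FPKM. Col1a1 and Pdgfrb went the other way. Col1a1 stood at 434.8 to 564.5 FPKM under pressure and 929.6 FPKM in the control, and Pdgfrb at 47.34 to 54.32 and 64.88 FPKM. Ly6a, the gene of the marker Sca-1, stood at 622 to 827.8 FPKM under pressure, against 1740 FPKM in the control. The surface markers Thy1 (1.001 to 1.83 FPKM under pressure, 0.01815 FPKM in the control) and Lepr (0.205 to 0.393 and 0.0308 FPKM) were low.

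Differences are given as log2(FPKM + 1), a scale that compresses differences of genes with low levels. The size rule asked for a difference of 2-fold or more in a gene averaging at least 1 FPKM across the libraries. Of the 8 genes 7 had that mean, and Tnfrsf11b, at a mean of 0.740 FPKM, did not. None of these 7 passed the rule at any pressure against the control, while 21.9% of all 12113 tested genes passed it at 1 or more pressures. In bulk RNA a change in the number of cells that express a gene and a change in RNA per cell cannot be told apart. On this scale all tested genes had a median difference from the control of 0.14 to 0.16, so the libraries share a shift of that size.

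Il34 and Tnfrsf1a, with Traf6, lay above the control at every pressure, and Csf1 and Kitl, with Tnfrsf11b, lay below it. The 95% interval of the ratio of reads per library total lay wholly above 1 at all 4 pressures for the first 3 genes, as it did for 40% of all tested genes with recovered reads. It lay wholly below 1 at all 4 for Csf1 and Kitl, as for 24.8% of those genes, and for Tnfrsf11b, which is not among the tested. At this depth most genes differed from the control library by more than counting error, so these counts of members do not stand out. Tnfsf11 and Vdr were the 2 members with no such result at all 4 pressures. Over the 7 tested members the median log2 difference was -0.18, -0.07, 0.21 and 0.24 at -80, -120, -160 and -200 mmHg. This median is the value of 1 gene, Vdr at -80 and -120 mmHg and Tnfsf11 at -160 and -200 mmHg. Over all 8 members, Tnfrsf11b included, it was -0.21, -0.28, -0.11 and 0.07, so no trend of the members with pressure is read from it.

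**Figure D1:**
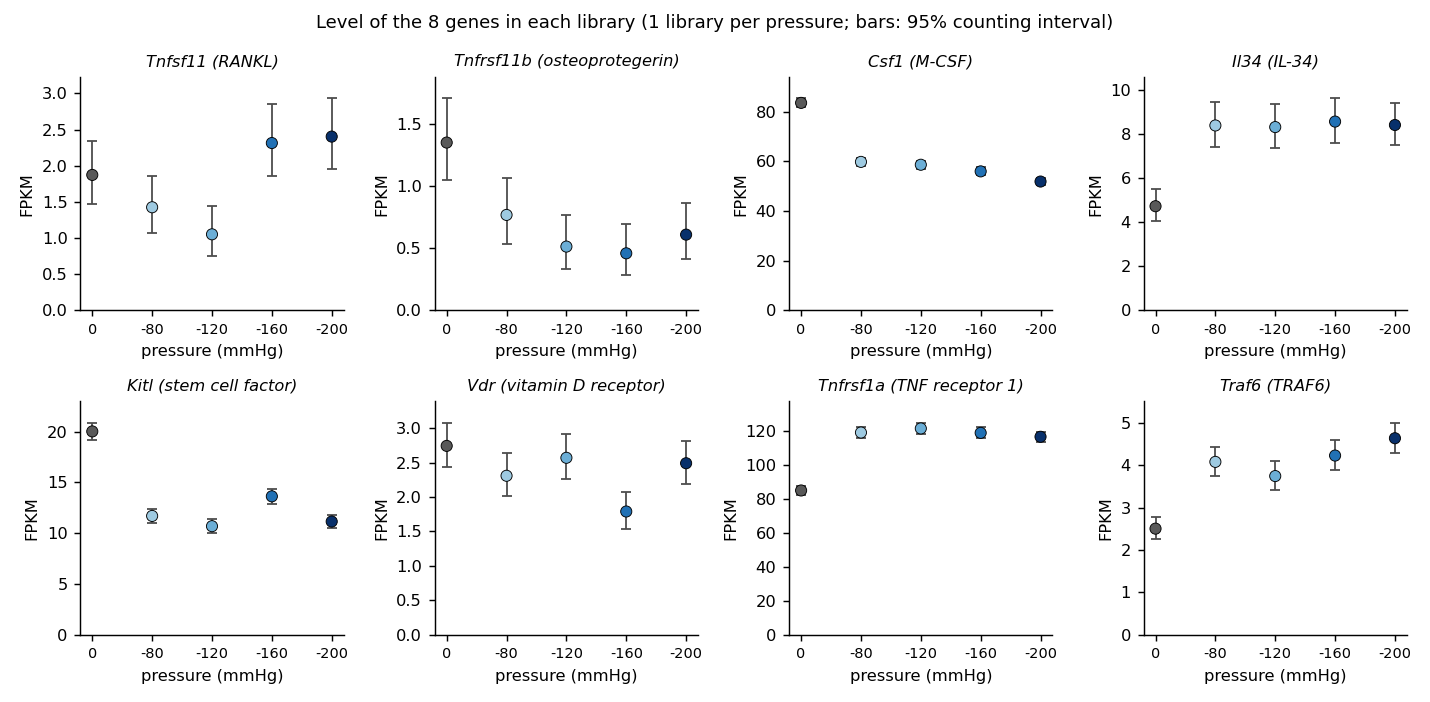
FPKM (vertical axes, each from 0) of the 8 genes in the libraries at 0, -80, -120, -160 and -200 mmHg (horizontal axes), with 1 point per library and bars for the 95% counting interval. Tnfsf11 is higher at -160 and -200 mmHg than at -80 and -120 mmHg, Csf1 is lower at each step, and the 4 pressure libraries of Il34 lie within 8.30 to 8.55 FPKM.

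The sequences upstream of 3 of the genes are shown because their values separate the pressure libraries in 3 ways described below: Tnfsf11 higher at the 2 strongest pressures, Csf1 lower at each step, and Kitl higher at -160 mmHg than at the other 3 pressures. Each sequence is the RefSeq promoter window on build GRCm38.p6, from 250 bases before to 50 bases after the annotated start, written 5′ to 3′ on the strand of the gene. These are chr14:78307994-78308293 on the minus strand for Tnfsf11, chr3:107760420-107760719 on the minus strand for Csf1 and chr10:100015571-100015870 on the plus strand for Kitl. RefSeq windows were matched for 6 of the 8 genes, and Il34 and Tnfrsf11b had no entry. Capitals mark matches, on either strand, to the motifs searched.
Tnfsf11: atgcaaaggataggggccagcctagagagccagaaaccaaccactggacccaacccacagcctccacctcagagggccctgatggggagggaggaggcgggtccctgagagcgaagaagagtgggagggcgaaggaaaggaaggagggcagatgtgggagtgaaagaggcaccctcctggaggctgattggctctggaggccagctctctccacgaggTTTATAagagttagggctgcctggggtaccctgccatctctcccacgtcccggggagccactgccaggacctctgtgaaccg
Csf1: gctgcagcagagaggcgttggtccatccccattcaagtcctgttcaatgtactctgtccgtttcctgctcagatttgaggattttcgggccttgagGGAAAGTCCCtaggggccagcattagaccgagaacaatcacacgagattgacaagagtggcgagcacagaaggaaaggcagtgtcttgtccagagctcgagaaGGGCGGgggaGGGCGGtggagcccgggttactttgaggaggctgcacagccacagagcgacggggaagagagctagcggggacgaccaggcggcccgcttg
Kitl: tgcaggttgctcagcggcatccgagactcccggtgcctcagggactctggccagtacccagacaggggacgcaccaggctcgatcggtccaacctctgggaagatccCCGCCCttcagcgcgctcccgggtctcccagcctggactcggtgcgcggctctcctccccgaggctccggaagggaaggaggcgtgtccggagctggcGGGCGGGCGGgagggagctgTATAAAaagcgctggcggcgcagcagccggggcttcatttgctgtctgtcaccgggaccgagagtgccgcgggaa

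The motifs were AP-1 (TGANTCA), the GC box (GGGCGG), RUNX (TGTGGT), a nuclear receptor half-site (AGGTCA), a STAT site (TTCNNNGAA), the TATA box (TATAAA) and an NF-kB site, each searched on both strands. The NF-kB letters are the reverse complement of the first run of capitals in the Csf1 window. Positions are those of the leftmost base, counted from the start site as +1. The Tnfsf11 window held 1 match, a TATA box in the reverse orientation at -32. TATA boxes were found in 13.6% of all 32851 windows of the same length, and among the 6 members also in Kitl, at -25 in the forward orientation. Csf1 held the NF-kB letters at -154, in reverse orientation, a match found in 0.155% of all windows. That motif was searched with more fixed letters than any of the others, which by itself makes matches rarer. GC boxes, present in 35.7% of all windows, were found in Csf1, Kitl, Vdr and Traf6, with an overlapping pair in Kitl. Traf6 also held a RUNX match (16.8% of all windows) and Tnfrsf1a a STAT match (8.30%), while the AP-1 letters (7.81%) and the half-site (16.3%) were in none of the 6 windows. A match is a run of letters in this window and not a measured binding site.

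Tnfsf11 encodes RANKL, the ligand that osteoclast precursors need in order to fuse and resorb bone. The gene (ENSMUSG00000022015.8, chromosome 14, 78277445 to 78308043 on the minus strand of GRCm38) measured 1.87, 1.43, 1.05, 2.31 and 2.40 FPKM in the libraries at 0, -80, -120, -160 and -200 mmHg. These levels rest on 77, 53, 39, 88 and 97 reads. The libraries at -160 and -200 mmHg were the highest, the control lay between, and those at -80 and -120 mmHg were the lowest. Against the control, reads per library total were 0.761-fold at -80 mmHg (95% interval 0.526 to 1.09), 0.561-fold at -120 mmHg (0.372 to 0.836), 1.24-fold at -160 mmHg (0.900 to 1.70) and 1.28-fold at -200 mmHg (0.942 to 1.75). Only the -120 mmHg interval lay wholly below 1, as it did for 30.1% of tested genes at that pressure, and none lay above. The log2 differences from the control were -0.24, -0.49, 0.21 and 0.24. The one at -160 mmHg became -0.01 under quantile normalization, so the direction against the control at that pressure was not settled.

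Among the pressures the difference in Tnfsf11 did not depend on the control. Its reads at -160 mmHg were 1.62-fold those at -80 mmHg (95% interval 1.14 to 2.33) and 2.20-fold those at -120 mmHg (1.49 to 3.30). At -200 mmHg they were 1.69-fold those at -80 mmHg (1.20 to 2.40) and 2.29-fold those at -120 mmHg (1.56 to 3.41). The intervals of -120 over -80 mmHg (0.475 to 1.14) and of -200 over -160 mmHg (0.770 to 1.40) included 1. Intervals above 1 in all 4 of the comparisons across this split were found in 2.96% of tested genes, a split that was chosen after the values were seen. The log2 range of Tnfsf11 over the 4 pressures was 0.73, larger than that of 96.1% of tested genes, whose median range was 0.222. Genes with few reads vary more by counting alone, and with 1 library a pressure the spread between cultures is unknown.

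Tnfrsf11b encodes osteoprotegerin, the soluble decoy receptor that binds RANKL. The gene (ENSMUSG00000063727.3, chromosome 15, 54250619 to 54278484, minus strand) stood at 1.35, 0.768, 0.513, 0.459 and 0.609 FPKM in the libraries at 0, -80, -120, -160 and -200 mmHg, from 70, 36, 24, 22 and 31 reads. All 4 pressure libraries lay below the control, and only the interval of the level at -80 mmHg reached that of the control. Reads per library total were 0.569-fold the control at -80 mmHg (95% interval 0.370 to 0.862), 0.380-fold at -120 mmHg (0.229 to 0.612), 0.340-fold at -160 mmHg (0.200 to 0.556) and 0.451-fold at -200 mmHg (0.286 to 0.698). All 6 intervals between pressures included 1. The log2 differences from the control were -0.41, -0.64, -0.69 and -0.55, and with a pseudocount of 0.1 they were -0.74, -1.24, -1.38 and -1.03, so a call for this gene, which the filter kept from the size rule, would rest on the pseudocount.

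The ratio of Tnfsf11 to Tnfrsf11b is often read as the balance of ligand and decoy. In FPKM it was 1.39 at 0 mmHg (95% interval 0.990 to 1.94), 1.86 at -80 mmHg (1.19 to 2.92), 2.05 at -120 mmHg (1.20 to 3.56), 5.04 at -160 mmHg (3.13 to 8.45) and 3.94 at -200 mmHg (2.61 to 6.12). The ratio at -160 mmHg was 3.62 times that of the control (exact conditional interval 1.996 to 6.74), and the ratio at -200 mmHg was 2.83 times (1.65 to 4.96). Those at -80 and -120 mmHg were 1.34 times (0.760 to 2.37) and 1.48 times (0.777 to 2.84) the control. Among the pressures the ratio at -160 mmHg was 2.70 times that at -80 mmHg (1.38 to 5.38) and 2.45 times that at -120 mmHg (1.162 to 5.199). At -200 mmHg it was 2.12 times that at -80 mmHg (1.14 to 3.98), and the interval against -120 mmHg included 1 (1.92 times, 0.9503 to 3.87). With a pseudocount of 1 added to both levels, as in the log2 differences, the ratio was 2.27 at -160 mmHg and 2.11 at -200 mmHg. With 22 to 36 reads of Tnfrsf11b in each pressure library, the ratios are imprecise even before any spread between cultures.

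**Figure D2:**
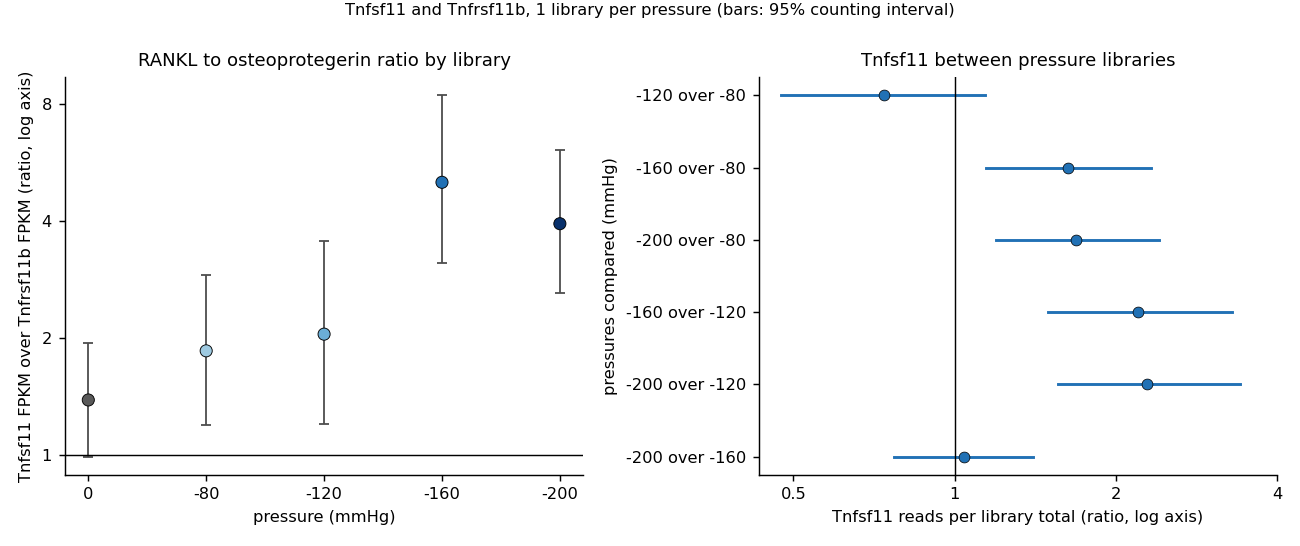
Left, the ratio of Tnfsf11 to Tnfrsf11b FPKM (log axis) in the libraries at 0 to -200 mmHg, with points at 1.39, 1.86, 2.05, 5.04 and 3.94. Right, the ratio of Tnfsf11 reads per library total (log axis) for the 6 pairs of pressures; bars in both are 95% counting intervals, and the 4 pairs that set -160 or -200 mmHg over -80 or -120 mmHg lie above 1.

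Csf1 encodes M-CSF, the growth factor of macrophages and osteoclast precursors. The gene (ENSMUSG00000014599.10, chromosome 3, 107741048 to 107760469, minus strand) reached 83.5, 59.7, 58.6, 55.9 and 51.8 FPKM in the libraries at 0, -80, -120, -160 and -200 mmHg, from 4943 to 8113 reads. It was lower at every step from 0 to -200 mmHg, and this order over the 5 libraries was found in 1.44% of tested genes. The order includes the step from the control and was chosen after the values were seen. Csf1 exceeded 92.2% to 94.7% of tested genes in each library. The ratio to the control was 0.716 at -80 mmHg (95% interval 0.691 to 0.741) and 0.621 at -200 mmHg (0.599 to 0.643), and the log2 differences at the 4 pressures were -0.48, -0.50, -0.57 and -0.68. Among the pressures, reads at -200 mmHg were 0.868-fold those at -80 mmHg (0.834 to 0.902), 0.885-fold those at -120 mmHg (0.851 to 0.920) and 0.927-fold those at -160 mmHg (0.891 to 0.964). Intervals below 1 against each of the other 3 pressures were found at -200 mmHg in 5.4% of tested genes, a pattern also chosen after the values were seen. The interval of -120 over -80 mmHg included 1 (0.944 to 1.02).

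Il34 encodes the cytokine IL-34, the other ligand of CSF1R. The gene (ENSMUSG00000031750.15, chromosome 8, 110741829 to 110805924, minus strand) had 4.72, 8.38, 8.30, 8.55 and 8.40 FPKM in the libraries at 0, -80, -120, -160 and -200 mmHg, from 170, 273, 270, 285 and 297 reads. The 4 pressure libraries all lay above the control and hardly differed, with a log2 range smaller than that of all but 0.627% of tested genes. At 270 to 297 reads the counting interval of each level is wider than that range, so its small size is not read as unusual stability. Reads per library total were 1.76-fold to 1.81-fold the control, with 95% intervals whose lower bounds were 1.45 to 1.49 and upper bounds 2.145 to 2.205, and the log2 differences were 0.70 to 0.74. All 6 intervals between pressures included 1. Antisense genes Gm15894 and Gm15895 overlap Il34 and reached at most 0.612 and 0.0824 FPKM.

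The levels of the CSF1R ligands lay closer together under pressure than in the control. Csf1 still stood above Il34 in every library, at 51.8 to 59.7 FPKM under pressure and 83.5 FPKM in the control, against 8.30 to 8.55 and 4.72 FPKM for Il34. Their intervals did not overlap.

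Kitl encodes stem cell factor, the ligand of the receptor KIT on haematopoietic progenitors and mast cells, which marrow stroma supplies in membrane-bound and soluble forms. The gene (ENSMUSG00000019966.18, chromosome 10, 100015630 to 100100416, plus strand) was present at 20.01, 11.7, 10.7, 13.6 and 11.1 FPKM in the libraries at 0, -80, -120, -160 and -200 mmHg, from 1048 to 2176 reads. Every pressure library lay below the control without overlap of the intervals, and the one at -160 mmHg was the highest of the 4. The ratio to the control was 0.584 at -80 mmHg (95% interval 0.544 to 0.628), 0.534 at -120 mmHg (0.495 to 0.575), 0.681 at -160 mmHg (0.636 to 0.729) and 0.557 at -200 mmHg (0.518 to 0.598). Its log2 difference of -0.85 at -120 mmHg was the largest in size of the 7 tested members, and 8.42% of tested genes had a lower value. The scaling moved these differences both ways. At -80, -120, -160 and -200 mmHg they were -0.73, -0.85, -0.52 and -0.79 as deposited and -0.50, -0.66, -0.32 and -0.61 without the 50 most abundant genes. With the trimmed mean log ratio at 0 they were larger in size, and the one at -120 mmHg reached the edge of the size rule without passing it. Reads at -160 mmHg were 1.17-fold those at -80 mmHg (1.08 to 1.26) and 1.28-fold those at -120 mmHg (1.18 to 1.38), and those at -200 mmHg were 0.818-fold those at -160 mmHg (0.756 to 0.884). Intervals above 1 for -160 mmHg against each other pressure were found in 4.37% of tested genes, a pattern that was chosen after the values were seen.

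Vdr encodes the vitamin D receptor, a nuclear receptor that in stromal cells drives Tnfsf11 when its ligand is present. The gene (ENSMUSG00000022479.15, chromosome 15, 97854425 to 97910630, minus strand) lay at 2.74, 2.31, 2.57, 1.79 and 2.49 FPKM in the libraries at 0, -80, -120, -160 and -200 mmHg, from 285, 217, 241, 172 and 254 reads. The library at -160 mmHg was the lowest, and the intervals of the others overlapped that of the control. Only at -160 mmHg did the interval of the ratio to the control (0.653-fold, 0.537 to 0.791) lie wholly below 1, as it did for 30.2% of tested genes at that pressure. At -80, -120 and -200 mmHg the ratios were 0.842 (0.702 to 1.01), 0.937 (0.786 to 1.117) and 0.908 (0.764 to 1.08). Reads at -160 mmHg were 0.775-fold those at -80 mmHg (0.631 to 0.951) and 0.696-fold those at -120 mmHg (0.569 to 0.850), and reads at -200 mmHg were 1.39-fold those at -160 mmHg (1.14 to 1.70). Intervals below 1 for -160 mmHg against each other pressure were found in 1.53% of tested genes, a pattern that was chosen after the values were seen. The -160 mmHg library thus held the highest Kitl and the lowest Vdr level of the 4 pressures, while its Tnfsf11 level was close to that at -200 mmHg.

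Tnfrsf1a encodes TNF receptor 1, the main signalling receptor for TNF on most cells. The gene (ENSMUSG00000030341.17, chromosome 6, 125349362 to 125362484, plus strand) measured 85.0, 119, 122, 119 and 117 FPKM in the libraries at 0, -80, -120, -160 and -200 mmHg, from 4050 to 5453 reads. The 4 pressure libraries lay above the control, with ratios of 1.37 to 1.43 and 95% intervals within 1.32 to 1.49. Their log2 range of 0.0600 was smaller than that of all but 2.06% of tested genes. Of the 6 intervals between pressures, that of -200 over -120 mmHg lay below 1 (0.959-fold, 0.923 to 0.996). The log2 difference from the control was 0.45 to 0.51 as deposited, 0.29 to 0.35 once libraries were scaled to a trimmed mean log ratio of 0, 0.64 to 0.76 under quantile normalization and 0.64 to 0.72 without the 50 most abundant genes.

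Traf6 encodes the ubiquitin ligase and adaptor that carries signals of RANK and of the interleukin 1 and Toll-like receptors to NF-kB. The gene (ENSMUSG00000027164.8, chromosome 2, 101678429 to 101701669, plus strand) had 2.50, 4.08, 3.74, 4.23 and 4.64 FPKM in the libraries at 0, -80, -120, -160 and -200 mmHg, from 363, 535, 490, 567 and 660 reads. All 4 pressure libraries lay above the control without overlap of the intervals, and the one at -200 mmHg was the highest. The ratio to the control was 1.63 at -80 mmHg (95% interval 1.42 to 1.87), 1.496 at -120 mmHg (1.30 to 1.72), 1.69 at -160 mmHg (1.48 to 1.93) and 1.85 at -200 mmHg (1.63 to 2.11). Reads at -200 mmHg were 1.14-fold those at -80 mmHg (1.01 to 1.28) and 1.24-fold those at -120 mmHg (1.1 to 1.395), and the interval against -160 mmHg included 1 (0.979 to 1.23).

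**Figure D3:**
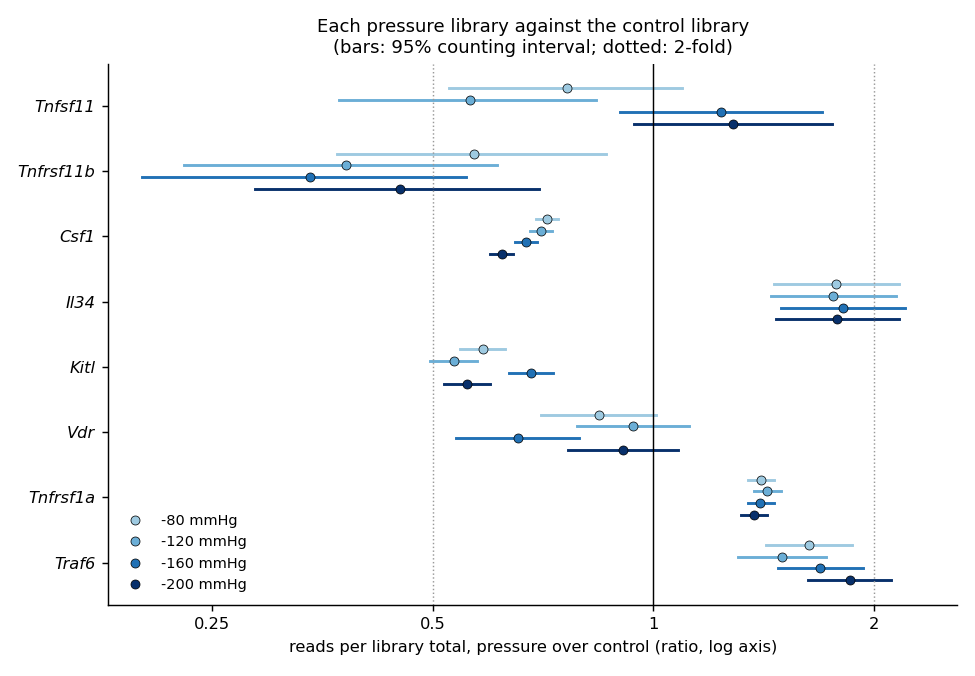
Ratio of reads per library total (log axis) for each of the 8 genes at -80, -120, -160 and -200 mmHg over the control library at 0 mmHg, with bars for the 95% counting interval, a solid line at 1 and dotted lines at 2-fold in either direction. Il34, Tnfrsf1a and Traf6 lie above 1 and Tnfrsf11b, Csf1 and Kitl below 1 at every pressure, while Tnfsf11 lies on both sides.

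Over the deposited values and the 4 other scalings, the direction against the control at each pressure held for Csf1, Il34, Kitl, Tnfrsf11b, Tnfrsf1a and Traf6. The log2 differences ranged from -0.84 to -0.24 for Csf1, from 0.53 to 0.92 for Il34, from 0.27 to 0.83 for Traf6 and from -0.85 to -0.29 for Tnfrsf11b. The directions of Tnfsf11 at -160 mmHg and of Vdr at -120 and -200 mmHg changed with the scaling.

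Between pressures none of the 7 tested members passed the size rule for any pair, and 2.26% of tested genes did for 1 or more pairs. With a pseudocount of 0.1 Tnfsf11 passed it, at 1.07 for -160 over -120 mmHg and 1.12 for -200 over -120 mmHg, where the values with a pseudocount of 1 were 0.69 and 0.73. Of the 48 intervals between pressures 19 excluded 1, in 6 of the 8 genes, and 74.3% of tested genes had such an interval. The order of levels within a library was nearly the same throughout. Tnfrsf1a was highest, followed by Csf1, Kitl and Il34, with Tnfrsf11b lowest. Tnfrsf1a and Csf1 did not differ beyond counting error in the control (85.0 and 83.5 FPKM), but did in each pressure library. In the control the neighbours Vdr, Traf6, Tnfsf11 and Tnfrsf11b each overlapped the next, and under pressure Traf6 came next after Il34. Vdr and Tnfsf11 overlapped at -160 and -200 mmHg, and Tnfsf11 and Tnfrsf11b at -120 mmHg.

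Receptors and competing ligands of these factors were mostly under 1 FPKM. Of 9 listed genes 2 had a mean of at least 1 FPKM, and neither passed the size rule at any pressure. They were Lgr4, a second receptor of RANKL (1.98 to 2.89 FPKM under pressure, 3.78 FPKM in the control), and Sdc1, a syndecan that binds IL-34 (24.7 to 27.2 and 38.04 FPKM). Tnfrsf11a, which encodes RANK, had 2, 0, 1 and 0 reads at -80, -120, -160 and -200 mmHg, against 108 reads in the control. Per library total the control was 48.8-fold higher than at -80 mmHg (95% interval 13.2 to 408.4), 99.9-fold higher than at -160 mmHg (17.6 to 3980), and at least 32.5-fold and 35.3-fold higher than at -120 and -200 mmHg, against a floor of 3 reads in the pressure library. With the counting error of the control included, the exact 95% lower limits at -120 and -200 mmHg were 25.97-fold and 28.25-fold. Csf1r had 36 to 42 reads under pressure and 10 in the control, and Kit had 1 read in the -160 mmHg library and 0 in the others. TNF itself had 0 to 7 reads (Tnf) under pressure and 8 in the control.

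Other genes by which stroma affects osteoclast formation included larger differences. Of 38 listed genes 27 were tested. At all 4 pressures 6 of these were higher and 2 lower, against 6.49% and 4.46% of all tested genes, 5 passed the rule at some pressures, and 14 at none. Their median log2 difference was 0.05, -0.07, -0.10 and -0.09 at -80, -120, -160 and -200 mmHg, where that of all tested genes was 0.16, 0.14, 0.15 and 0.14. The list was chosen with earlier results of these data known, so no excess over all tested genes is read from its counts. Ptgs2, the inducible cyclooxygenase whose prostaglandin E2 raises RANKL, had 51.5 to 74.3 FPKM under pressure, against 13.9 FPKM in the control. Efnb2, a membrane ephrin through which osteoclasts and osteoblasts signal to each other, had 9.08 to 11.5 FPKM, against 1.94 FPKM. Fgf2, a fibroblast growth factor, had 5.12 to 6.13 FPKM, against 1.19 FPKM.

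Esr1, the oestrogen receptor, had 2.38 to 2.73 FPKM under pressure, against 0.382 FPKM in the control. Adam10, a sheddase of membrane proteins, had 34.9 to 38.8 FPKM, against 14.2 FPKM, and Igf1 had 7.04 to 7.95 FPKM, against 0.516 FPKM. Ccl2, a monocyte chemokine, had 327.9 to 345.9 FPKM, against 901.8 FPKM, and Sfrp1, a secreted Wnt antagonist, had 0.139 to 0.282 FPKM, against 126 FPKM. Il6, which raises RANKL in stromal cells, had 7.62, 8.61, 9.37 and 11.1 FPKM at the 4 pressures, against 3.65 FPKM, and passed the rule at all but -80 mmHg. Wnt5a, a Wnt ligand that acts on osteoclast precursors, had 11 to 22 reads under pressure and 212 in the control, with a mean under 1 FPKM.

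**Figure D4:**
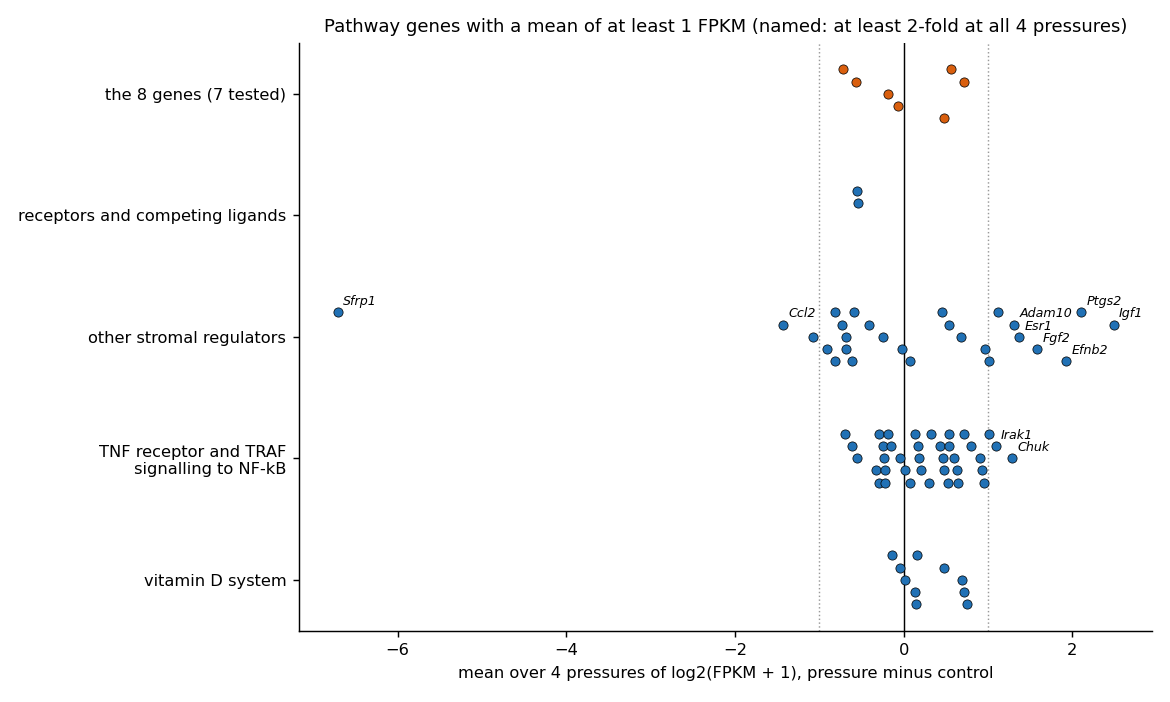
Mean over the 4 pressures of the difference in log2(FPKM + 1), pressure minus control (horizontal axis), for the tested genes of 5 lists, 1 point per gene; the vertical offset within a list only separates points, dotted lines mark 2-fold, and names mark genes past the rule at all 4 pressures. The 7 tested members lie between -0.72 and 0.72, inside the lines, while Sfrp1 lies at -6.71 and Igf1 at 2.49.

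In the pathway from TNF receptors and TRAF adaptors to NF-kB, which includes the partners of Traf6 and Tnfrsf1a, 38 of 40 listed genes were tested. At all 4 pressures 2 were higher and 0 lower, against 6.49% and 4.46% of all tested genes, so the list held no more such genes than the background. Another 3 passed at some pressures and 33 at none. The median log2 difference was 0.25, 0.31, 0.29 and 0.24, where that of all tested genes was 0.16, 0.14, 0.15 and 0.14. The 2 calls became 0 with a pseudocount of 5 and under quantile normalization. Chuk, which encodes the kinase IKK-alpha, had 13.0 to 15.4 FPKM under pressure, against 5.28 FPKM in the control. Irak1, a kinase that joins TRAF6 downstream of the interleukin 1 receptor, had 28.2 to 30.5 FPKM, against 13.2 FPKM. Map3k7, which encodes TAK1, the kinase that TRAF6 activates, had 15.8 to 16.3 FPKM, against 9.36 FPKM, below the rule. Tnfrsf1b, the second TNF receptor, had 35.3 to 36.2 FPKM, against 31.5 FPKM. Nfkbia, an inhibitor of NF-kB and one of its targets, had 43.8 to 49.1 FPKM, against 72.2 FPKM, and Nfkbib, a related inhibitor, had 9.27 to 11.5 FPKM, against 13.3 FPKM. Nfkbie, Tnfaip3 and Cyld, also negative regulators of the pathway, lay above the control. Nfkbie had 14.0 to 16.0 FPKM, against 9.01 FPKM, Tnfaip3, which encodes A20, had 8.55 to 9.41 FPKM, against 4.31 FPKM, and the deubiquitinase gene Cyld had 7.78 to 9.08 FPKM, against 3.63 FPKM, and passed the rule at some pressures. Among other TRAF genes, Traf3 had 4.89 to 5.31 FPKM, against 3.46 FPKM, and Traf4 had 8.47 to 9.66 FPKM, against 14.9 FPKM. The genes of the NF-kB subunits went both ways, with Rela, Rel and Nfkb2 above the control at every pressure and Relb and Nfkb1 below it. Rela had 44.1 to 50.6 FPKM, against 31.9 FPKM, and Relb had 10.8 to 13.3 FPKM, against 17.8 FPKM.

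Of 19 listed genes of the vitamin D system 10 were tested and none passed the rule at any pressure. Their median log2 difference was 0.26, 0.21, 0.19 and 0.14, where that of all tested genes was 0.16, 0.14, 0.15 and 0.14. The receptor's partner genes Rxra and Rxrb had 12.3 to 16.6 and 18.5 to 20.9 FPKM under pressure, against 14.5 and 21.5 FPKM in the control. The corepressor gene Ncor1 had 12.6 to 14.2 FPKM, against 7.38 FPKM. Cyp24a1, the vitamin D hydroxylase that the receptor strongly induces, had 1 or 2 reads in each pressure library and 0 in the control.

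Of 11 osteoclast markers 4 were tested, and the list's summed level was 9.69 to 10.4 FPKM under pressure and 94.7 FPKM in the control, of which Ctsk made up 1.15 to 2.31 and 78.1 FPKM and Mmp9 2.52 to 2.79 and 11.99 FPKM. The other tested osteoclast markers lay above the control without passing the size rule, Nfatc1 at 2.19 to 2.36 FPKM under pressure and 1.135 FPKM in the control, and Itgb3 at 2.30 to 2.89 and 2.063 FPKM. The 95% interval of the ratio to the control lay above 1 at all 4 pressures for Nfatc1 but not for Itgb3. Oscar, under the filter, had 0.796 to 1.009 FPKM under pressure and 0.3825 FPKM in the control. Dcstamp had 0 reads in all 5 libraries, Acp5 was at 0 in all but the -80 mmHg library (0.118 FPKM), and Calcr was at 0 in the control. Of 12 macrophage markers 3 were tested (Cd14, Cd68 and Lyz2), all higher at all 4 pressures, and the list's summed level was 67.1 to 74.9 FPKM under pressure and 27.6 FPKM in the control, of which Cd14 made up 50.3 to 55.6 and 23.6 FPKM. Itgam, C1qa and C1qb had 0 reads in all 5 libraries, and Ptprc and Adgre1 were at 0 in the control and at most 0.01815 FPKM under pressure. Endothelial markers summed to 3.39 to 4.95 FPKM under pressure and 1.09 FPKM in the control, and lymphoid markers to at most 0.202 FPKM. Most of the endothelial sum was Plvap (2.70 to 4.18 and 0.711 FPKM), the only tested marker of that list, which was higher at all 4 pressures. Under the filter, Kdr had 0.345 to 0.487 and 0.120 FPKM and Pecam1 0.0566 to 0.116 and 0.00873 FPKM. Cdh5 had at most 0.0280 FPKM. Emcn, Ibsp, Sost and 4 of 6 lymphoid markers had 0 reads in all 5 libraries. Of 7 osteoblast markers 2 were tested, Runx2 (5.79 to 6.90 FPKM under pressure, 3.49 FPKM in the control) and Alpl (0.894 to 1.29 and 3.03 FPKM). The part of these cells in the members' levels was not tested.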

How the data were processed

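RNA-seq was available for 5 libraries of mouse BMSCs, 1 per condition. The authors deposited these as linear FPKM in a single gene table. The tools named, per the submitters' processing notes, are HISAT2, SAMtools and featureCounts 1.5.0-p3. The same notes name rn6, a rat build, although the gene IDs are those of mouse. No source used here states whether strand was used in counting, so reads of overlapping and antisense genes may be mixed.

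Symbols, coordinates (GRCm38) and exon lengths came from GENCODE release M21, which held 54349 of the 55401 IDs at the same version and 55141 at any. Multiplying FPKM by exon length gave whole reads, within 0.01, for 54731 genes (98.8%), all 8 members included. The value of 1 read gave the library totals, and the reads served for the 95% Clopper-Pearson intervals of ratios, for the exact Poisson intervals of levels and for floors of 3 reads. Changes were computed as log2(FPKM + 1) with a mean of at least 1 FPKM and a fixed rule of 2-fold, over 12113 genes, and interval counts over the 11911 of these with recovered reads. No p-value was computed. Intervals were not adjusted for their number, 32 against the control and 48 between pressures.

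The members, lists and rules were chosen with earlier results of these data known. Genes were named by the rule that takes all members and, in 4 lists, the genes past the rule at all 4 pressures, and genes named outside it (such as Il6, Nfkbia and Tnfrsf11a) were chosen after their values were seen. That rule also asked for genes of similar profile for each member past the size rule at all 4 pressures, of which there were none. Alternatives were pseudocounts of 0.1 and 5, no filter or a minimum mean of 5 FPKM, the mean log ratio after trimming 30% at each end set to 0, upper-quartile and quantile scaling, leaving out the top 50 genes by level, a 1.5-fold rule, and a 95% counting interval wholly past 2-fold. The functions were tested on simulated reads. Promoter windows came from RefSeq (GRCm38.p6). Software was matplotlib 3.10.9, scipy 1.17.1, pandas 2.3.3 and numpy 2.4.6, under Python 3.11.15. Columns of other samples numbered 0.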

Additional observations from a re-analysis of the deposited data

How the results depend on the processing

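None of the members kept by the filter (4 to 8 of the 8 genes, 7 in most settings) passed the 2-fold rule against the control under any alternative that kept this threshold. Tnfrsf11b, counted only with no filter, reached log2 differences of -1.24, -1.38 and -1.03 at -120, -160 and -200 mmHg with a pseudocount of 0.1. With a 1.5-fold rule 1 member was higher at all 4 pressures (Il34), 2 were higher and 2 lower at 1 or more pressures, and 1 passed between 2 pressures (Tnfsf11), as 1 also did with a pseudocount of 0.1. With that rule the stromal regulators had 10 higher and 8 lower at all 4 pressures, the NF-kB list 9 higher and the vitamin D list 2 higher. The share of all tested genes past a 1.5-fold rule was not computed, so no excess is read from these counts or from those of the members. The lower stromal regulators numbered 5 with no filter and 1 under quantile normalization, in place of 2. The 2 higher genes of the NF-kB list became 0 with a pseudocount of 5 and under quantile normalization, 1 with the trimmed mean set to 0 and with the counting interval past 2-fold, and 4 when the 50 most abundant genes were dropped. With a pseudocount of 1 the ratio of Tnfsf11 to Tnfrsf11b became 2.27 at -160 mmHg and 2.11 at -200 mmHg. The cause of these shifts was not tested, apart from pseudocounts, which shrink ratios of low genes by construction. Of 268 member values recomputed under alternatives 3 changed sign, in each case one whose interval included 1. These were Tnfsf11 at -160 mmHg (-0.01 under quantile normalization) and Vdr at -120 and -200 mmHg (0.07 and 0.04 when those 50 genes were dropped). No paired analysis was possible because each condition has 1 library. At 22 to 97 reads a pressure library, depth limits Tnfsf11 and Tnfrsf11b most among the members.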
